A study of Arabidopsis thaliana with 9 samples.

Results

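The cysteine-rich receptor-like kinases (CRKs) of Arabidopsis thaliana were followed across RNA sequencing libraries of whole wild-type seedlings, ecotype Col-0. The family was taken as 41 loci chosen by locus code, of 32833 loci in the count table. Of these, 20 form a tandem cluster on chromosome 4 (AT4G23130 to AT4G23320) and 21 lie elsewhere, 16 of them on other stretches of the same chromosome. The 3 groups, with 3 libraries each, were seedlings treated with flg22 at 100 nM, seedlings treated with 2-AA (2′-aminoacetophenone) at 200 uM, and mock seedlings, whose label gives no treatment. All seedlings had spent 5 days on solid medium and 5 more days in liquid medium. How long seedlings were treated, at what hour they were harvested and what the mock group was given is not given in the sources used here. The submitters name the 3 libraries of a group biological replicates, without stating that they are separate cultures, and p-values therefore measure only the spread among libraries. Flg22 is a peptide of bacterial flagellin that plants perceive through the receptor kinase FLS2, and 2-AA is a small volatile molecule made by the bacterium Pseudomonas aeruginosa as a quorum sensing signal. The question addressed here was how each CRK gene responded to either molecule, and where the responses to the molecules differed.

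A CRK protein has an extracellular part with DUF26 domains, each held by conserved cysteines, then a membrane-spanning stretch and a serine/threonine kinase inside the cell. The family grew by tandem duplication in Arabidopsis, and its genes are known for responses to pathogens, salicylic acid, ozone and other sources of reactive oxygen. Several members raise bacterial resistance or trigger cell death when overexpressed. A few act beside the flagellin receptor complex, or on the NADPH oxidase that produces reactive oxygen at the cell surface.

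The DUF26 motif, a cysteine, 8 residues, a cysteine, 2 residues and a cysteine, was found in the coding sequence of 40 members in the RefSeq annotation of TAIR10.1. It occurred 2 times in 37 members, 4 times in CRK17, 3 times in CRK23 and 1 time in CRK24. Motifs 3 and 4 of CRK17 (chr4:12162918-12162956 and chr4:12162564-12162602) are the same DNA as motifs 1 and 2 of CRK16, which overlaps it. CRK45, which RefSeq names ARCK1 and which is known as a kinase without the extracellular part, held none. The coding sequence of CRK9, which RefSeq names EP1, was 798 bases in a single exon. The motifs below are coding DNA from members described in the next paragraphs, shown because they mark the family and show how closely some copies resemble each other, with the cysteine codons in capitals. The first motifs of CRK13 (chr4:12151146-12151184, minus strand), CRK22 (chr4:12182236-12182274, plus strand), CRK11 (chr4:12143435-12143473, minus strand), CRK4 (chr3:16865739-16865777, minus strand), CRK3 (chr1:26591098-26591136, minus strand) and CRK42 (chr5:16152388-16152426, plus strand) read as follows.
CRK13 motif 1: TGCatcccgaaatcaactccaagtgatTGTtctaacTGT
CRK22 motif 1: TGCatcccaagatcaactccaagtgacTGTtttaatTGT
CRK11 motif 1: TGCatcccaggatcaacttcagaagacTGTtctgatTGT
CRK4 motif 1: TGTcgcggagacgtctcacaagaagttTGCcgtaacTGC
CRK3 motif 1: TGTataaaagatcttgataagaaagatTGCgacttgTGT
CRK42 motif 1: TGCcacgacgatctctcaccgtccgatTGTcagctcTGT
The second motif was the same in CRK13 (chr4:12150771-12150809, minus strand) and CRK22 (chr4:12182611-12182649, plus strand).
CRK13 and CRK22 motif 2: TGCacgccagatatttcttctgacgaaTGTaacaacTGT

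That second motif lay within an exact run of 309 bases shared by CRK13 and CRK22 (chr4:12150636-12150944 in CRK13). Of all exonic stretches of 50 bases in CRK13, 15.4% also occurred in CRK22, and 16.2% of those of CRK22 occurred in CRK13. CRK8 held 12.6% of its stretches in common with CRK6. The closest coding sequences were those of CRK8 and CRK9 (90.6% identity over the shorter), CRK19 and CRK20 (89.97%), CRK31 and CRK32 (87.5%) and CRK39 and CRK40 (87.1%). Some annotated genes also overlapped on the same strand, CRK16 with CRK17 by 1190 bases and CRK28 with CRK29 by 470 bases. CRK10 overlapped CRK11 by 32 bases on the opposite strand, and CRK25 overlapped AT4G05190 by 492. How reads shared by such genes were assigned, and whether strand was used, is not known from the sources used here, so the values of these genes are uncertain to that extent.

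Promoters, taken as the 250 bases before each annotated start, were searched on both strands for TTGAC, the core of the W-box bound by WRKY factors, its extensions TTGACC and TTGACT, the TGA-factor core TGACG, and the G-box CACGTG. A run of TTGACG would count both as a W-box core and as a TGA-factor core. The W-box core occurred in 29 of 41 member promoters (70.7%), in 15 of 20 in the cluster and 14 of 21 elsewhere, against 44.9% of 27443 promoters of the genome. At least 2 copies stood in 17 members (41.5%), against 14.1% of all promoters. TTGACT occurred in 19 members (46.3%, against 19.1%), TTGACC in 8 (19.5%, against 12.2%), TGACG in 14 (34.1%, against 18.6%) and CACGTG in 1 (2.44%, against 6.49%). The promoters of CRK11 (chr4:12143859-12144108), CRK13 (chr4:12151639-12151888) and CRK17 (chr4:12167027-12167276), each on the minus strand and read 5′ to 3′ along its gene, are shown because these 3 members of the cluster responded differently. Capitals mark TTGAC on either strand.
CRK11 promoter: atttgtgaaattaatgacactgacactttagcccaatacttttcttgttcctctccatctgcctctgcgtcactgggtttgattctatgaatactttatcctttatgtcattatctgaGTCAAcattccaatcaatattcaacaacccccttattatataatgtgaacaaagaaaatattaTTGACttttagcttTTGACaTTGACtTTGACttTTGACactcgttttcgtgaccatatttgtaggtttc
CRK13 promoter: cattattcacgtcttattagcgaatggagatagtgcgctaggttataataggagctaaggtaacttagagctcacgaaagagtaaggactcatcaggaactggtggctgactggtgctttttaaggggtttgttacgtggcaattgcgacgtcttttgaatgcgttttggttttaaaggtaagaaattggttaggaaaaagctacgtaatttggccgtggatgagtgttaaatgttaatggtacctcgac
CRK17 promoter: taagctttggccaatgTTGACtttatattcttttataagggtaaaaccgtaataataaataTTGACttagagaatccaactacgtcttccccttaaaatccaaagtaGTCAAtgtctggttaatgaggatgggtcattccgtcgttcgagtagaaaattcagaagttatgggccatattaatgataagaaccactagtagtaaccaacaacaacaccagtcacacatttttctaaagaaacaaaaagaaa
CRK11 held 6 copies, with first bases at -132, -69, -55, -49, -43 and -36 from the start, CRK13 held 0 and CRK17 held 3.

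Library totals ran from 26644996 to 33195007 counts. With 0 counts, a gene could stand at up to 0.0904 to 0.113 CPM (edgeR's counts scaled to a common library total), taking 3 counts as the floor, which covers counting error only. Low counts came mostly in even numbers: 60 of 68 member counts between 1 and 20 were even (88.2%), as were 68.9 to 71.3% of such counts over all genes in a library. In 3 libraries (mock 3, flg22 2 and 2-AA 2) organelle genes took 0.109 to 0.366% of counts, against 0.0301 to 0.0382% in the other 6. Clock genes differed between treated and mock seedlings, with 10 of 11 called against mock in either treatment (6 higher, 4 lower) and 0 of 11 in 2-AA against flg22. Green leaf markers summed to 21300 to 23956 CPM with flg22, 19460 to 22436 CPM with 2-AA and 28034 to 28588 CPM in mock, with 4 of 5 lower with flg22 and 5 of 5 lower with 2-AA. Root markers summed to 83.2 to 96.7 CPM with flg22, 98.6 to 107 CPM with 2-AA and 110 to 119 CPM in mock, with 4 of 6 lower with flg22 and 2 of 6 lower with 2-AA. Guard cell lineage markers summed to 62.4 to 66.2 CPM with flg22, 53.9 to 60.1 CPM with 2-AA and 52.5 to 60.7 CPM in mock, with 1 of 4 higher with flg22, and 1 higher and 2 lower with 2-AA. Over all genes tested, 29.8% were called higher and 29.4% lower with flg22, and 31.2% higher and 31.1% lower with 2-AA. In 2-AA against flg22 the shares were 7.86% higher and 7.89% lower. Root falls with 2-AA (33.3%) and guard cell lineage rises in either treatment (25%) lay near these shares. None of these marker genes was at 0. Some marker calls were lost when 1 library was left out. The LHCB1.3 fall with flg22 was lost without flg22 replicate 3, 2-AA replicate 1 or any mock replicate (edgeR adjusted p = 0.0572 to 0.157). Its fall with 2-AA was lost without 2-AA replicate 1 (0.0562) or 2 (0.0558). With 2-AA, the fall of COBL9 was lost without mock replicate 3 (0.0514). That of TMM was lost without 2-AA replicate 1 (0.0557) or mock replicate 1 (0.077). In bulk samples such as whole seedlings, fewer cells of a type and less RNA per cell cannot be told apart. The part of the clock, of tissue makeup and of the organelle-rich libraries in the results below was not tested beyond the values given.

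Counts of the CRK family as a whole were higher in both treatments than in mock. The 41 loci summed to 956, 1072 and 1208 CPM in the flg22 libraries, 1196, 1409 and 1550 CPM in the 2-AA libraries, and 389, 410 and 440 CPM in the mock libraries. Every treated library lay above every mock library, while the treatments overlapped at their edges. The cluster summed to 608 to 798 CPM with flg22, 765 to 1016 CPM with 2-AA and 174 to 216 CPM in mock, which put the mean sum at 3.65 times mock with flg22 and 4.69 times mock with 2-AA. The members elsewhere summed to 348 to 409 CPM with flg22, 431 to 534 CPM with 2-AA and 214 to 226 CPM in mock, or 1.71 times mock with flg22 and 2.19 times mock with 2-AA. The difference between the cluster and the members elsewhere was not tested.

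Of the 41 loci, 37 passed the filter on low counts, all 20 of the cluster and 17 elsewhere. CRK1 (AT1G19090) and CRK33 (AT4G11490) had 0 counts in all 9 libraries. CRK32 (AT4G11480) had 61 counts in all. CRK37 (AT4G04500) had 72, of which 56 were in flg22 libraries, 8 in 2-AA libraries and 8 in mock libraries, all of these in mock replicate 3. Over all libraries CRK37 averaged 0.638 CPM with flg22 and 0.0877 CPM in mock. Without mock replicate 3 it was at least 13.8-fold higher with flg22, taking 3 counts over the mock libraries kept as the floor. Low counts came mostly in even numbers, so this floor may be too low. A further 11 members (7 in the cluster, 4 elsewhere) passed the filter only through treated libraries. They thus had to be higher in a treatment. In the cluster these were CRK6, CRK7, CRK8, CRK15, CRK20, CRK23 and CRK24, and elsewhere CRK4, CRK31, CRK38 and CRK39. Their calls and adjusted p-values against mock are not free of that selection.

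With flg22, edgeR called 31 of the 37 members higher than mock, 3 lower and 3 not different at an adjusted p under 0.05. Over all 21059 genes tested, 29.8% were called higher and 29.4% lower, so that the members' share of rises (83.8%) lay above the background and their share of falls (8.11%) below it. The median log2 fold change was 1.83 over the members and -0.00 over all genes. Rises of at least 2-fold were called for 27 members, against 9.26% of all genes, and of at least 4-fold for 17 members, against 3.02%. Both counts include most of the 11 members that passed the filter only through treated libraries. These are CRK4, CRK6, CRK7, CRK15, CRK20, CRK23, CRK24, CRK31 and CRK38, and in the 2-fold count also CRK8. They had to be high in a treatment to be tested, so neither count can be set plainly against the share of all genes. Neither count was redone without those members. Falls of at least 2-fold were called for 2 members, against 9.71% of all genes. In the cluster 19 of 20 members rose and 1 fell, with a median of 2.42, and elsewhere 12 of 17 rose and 2 fell, with a median of 1.15. Among the 26 members that mock libraries alone would have carried through the filter, 21 rose and 3 fell, with a median of 1.35 (cluster 12 and 1, median 1.64; elsewhere 9 and 2, median 1.07).

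With 2-AA, 25 of the 37 members were called higher than mock, 4 lower and 8 not different, beside 31.2% of all genes called higher and 31.1% lower. The median log2 fold change was 1.63 over the members and -0.00 over all genes. Rises of at least 2-fold were called for 21 members, against 10.1% of all genes, and of at least 4-fold for 14, against 3.52%. Here too both counts include some of the 11 members that passed the filter only through treated libraries. These are CRK7, CRK15, CRK24 and CRK38, and in the 2-fold count also CRK4. Neither count was redone without those members, whose rises were partly selected for. Falls of at least 2-fold were called for 3, against 11.9%. In the cluster 15 of 20 members rose and 1 fell, with a median of 2.34, and elsewhere 10 of 17 rose and 3 fell, with a median of 1.18. Among the 26 members that mock libraries alone would have carried through the filter, 20 rose and 4 fell, with a median of 1.68 (cluster 12 and 1, median 2.73; elsewhere 8 and 3, median 0.74). Both comparisons used the same 3 mock libraries. Members with TTGAC in the promoter numbered 22 of the 31 higher with flg22, 2 of the 3 lower and 2 of the 3 not called, and with 2-AA 16 of the 25 higher, 2 of the 4 lower and 8 of the 8 not called.

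**Figure D1:**
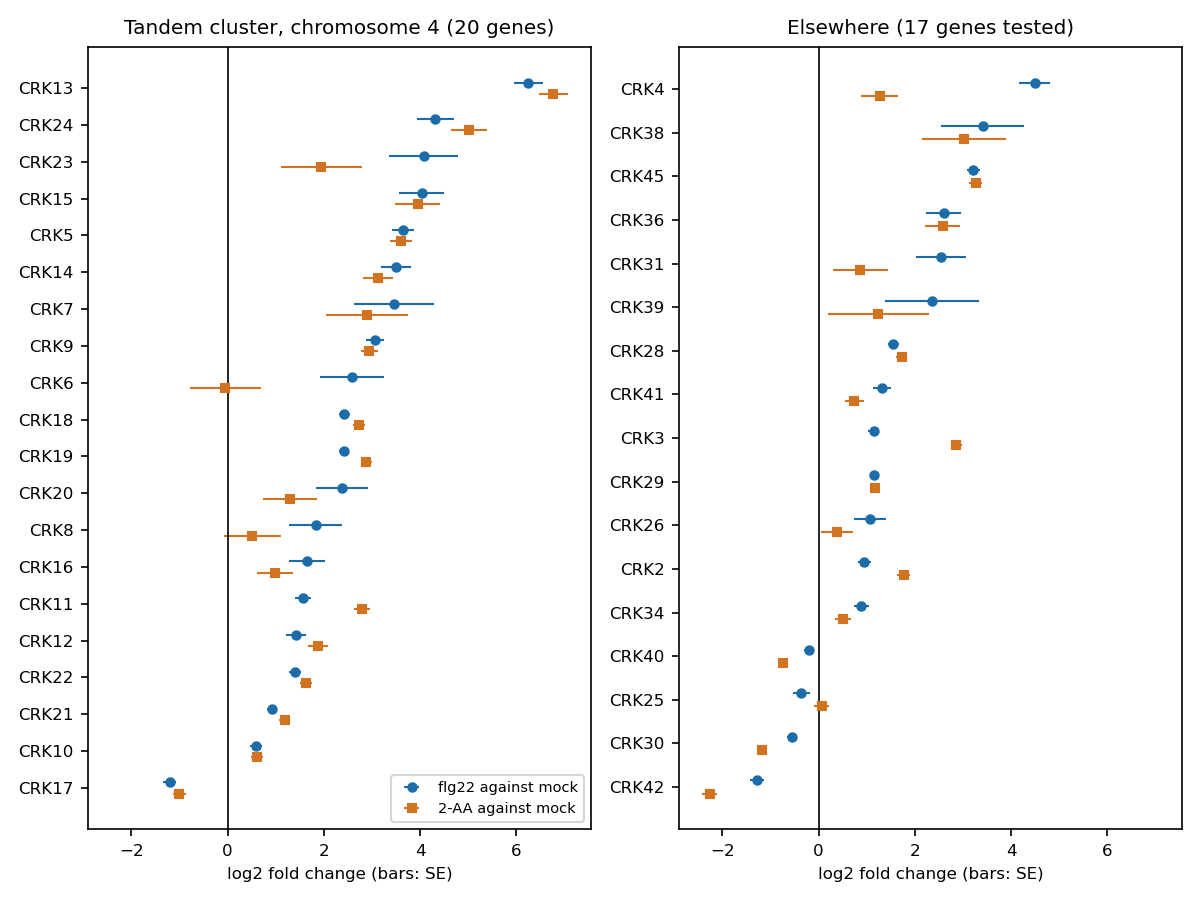
Log2 fold change (x axis) of the 37 members tested, with flg22 and with 2-AA, each against mock; points are edgeR estimates and bars 1 SE, in 1 panel for the 20 cluster members and 1 for the 17 elsewhere. Most points lie right of 0, CRK13 farthest at 6.25 with flg22 and 6.77 with 2-AA, and CRK17, CRK30, CRK40 and CRK42 lie left of 0 in both, CRK40 with flg22 only by 0.21 and not called.

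CRK13 (AT4G23210) had the largest rise with either molecule. Its overexpression is known to raise bacterial resistance through salicylic acid. CRK13 stood at 112, 102 and 71.5 CPM with flg22, at 144, 174 and 92.4 CPM with 2-AA, and at 1.61, 0.791 and 1.38 CPM in mock. Each treated library was far above each mock library, and the treatments overlapped. CRK13 rose by a log2 fold change of 6.25 with flg22 (SE 0.30, edgeR adjusted p = 3.1e-09; 75.9-fold) and 6.77 with 2-AA (SE 0.30, adjusted p = 1.09e-09; 109-fold). The share of all CRK counts that CRK13 took was 8.81% with flg22, 9.88% with 2-AA and 0.305% in mock. CRK22 (AT4G23300), which shares the exact run of 309 bases with CRK13, averaged 104 ± 17.3 CPM with flg22, 123 ± 14.9 CPM with 2-AA and 39.6 ± 4.49 CPM in mock (SD, n = 3 each), and rose by 1.39 with flg22 and 1.63 with 2-AA.

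CRK24 (AT4G23320), at the far end of the cluster, stood at 3.61, 2.35 and 1.96 CPM with flg22, at 4.47, 4.15 and 4.22 CPM with 2-AA, and at 0.134, 0.182 and 0.0658 CPM in mock, where it had only 4, 6 and 2 counts. No treated library overlapped with mock. Its log2 fold change was 4.32 with flg22 (SE 0.38, edgeR adjusted p = 5.5e-07) and 5.01 with 2-AA (SE 0.37, adjusted p = 8.61e-08). CRK15 (AT4G23230) stood at 6.76, 5.68 and 4.63 CPM with flg22, at 5.58, 6.4 and 4.16 CPM with 2-AA, and at 0.0669, 0.182 and 0.789 CPM in mock. Again the treated libraries all lay above mock, of which mock replicate 3 was the highest. The log2 fold change of CRK15 was 4.03 with flg22 (SE 0.47, adjusted p = 7.64e-06) and 3.95 with 2-AA (SE 0.47, adjusted p = 8.06e-06), and without mock replicate 3 it was 5.45 with flg22 and 5.37 with 2-AA.

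CRK5 (AT4G23130), whose overexpression is known to raise resistance to bacteria, stood at 25.9, 23 and 25 CPM with flg22, at 25.7, 27.2 and 19.1 CPM with 2-AA, and at 1.24, 1.7 and 2.93 CPM in mock. The treatments overlapped and both stood clear of mock. CRK5 rose on the log2 scale by 3.65 with flg22 (SE 0.23, edgeR adjusted p = 2.56e-08) and 3.61 with 2-AA (SE 0.23, adjusted p = 1.99e-08). CRK14 (AT4G23220) stood at 11.4, 11.6 and 6.43 CPM with flg22, at 7.94, 7.62 and 7.12 CPM with 2-AA, and at 0.402, 0.973 and 1.22 CPM in mock. Its treated libraries also lay wholly above mock, with flg22 replicate 3 the lowest of them. Its log2 fold change was 3.49 with flg22 (SE 0.31, adjusted p = 6.54e-07) and 3.12 with 2-AA (SE 0.31, adjusted p = 1.59e-06).

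**Figure D2:**
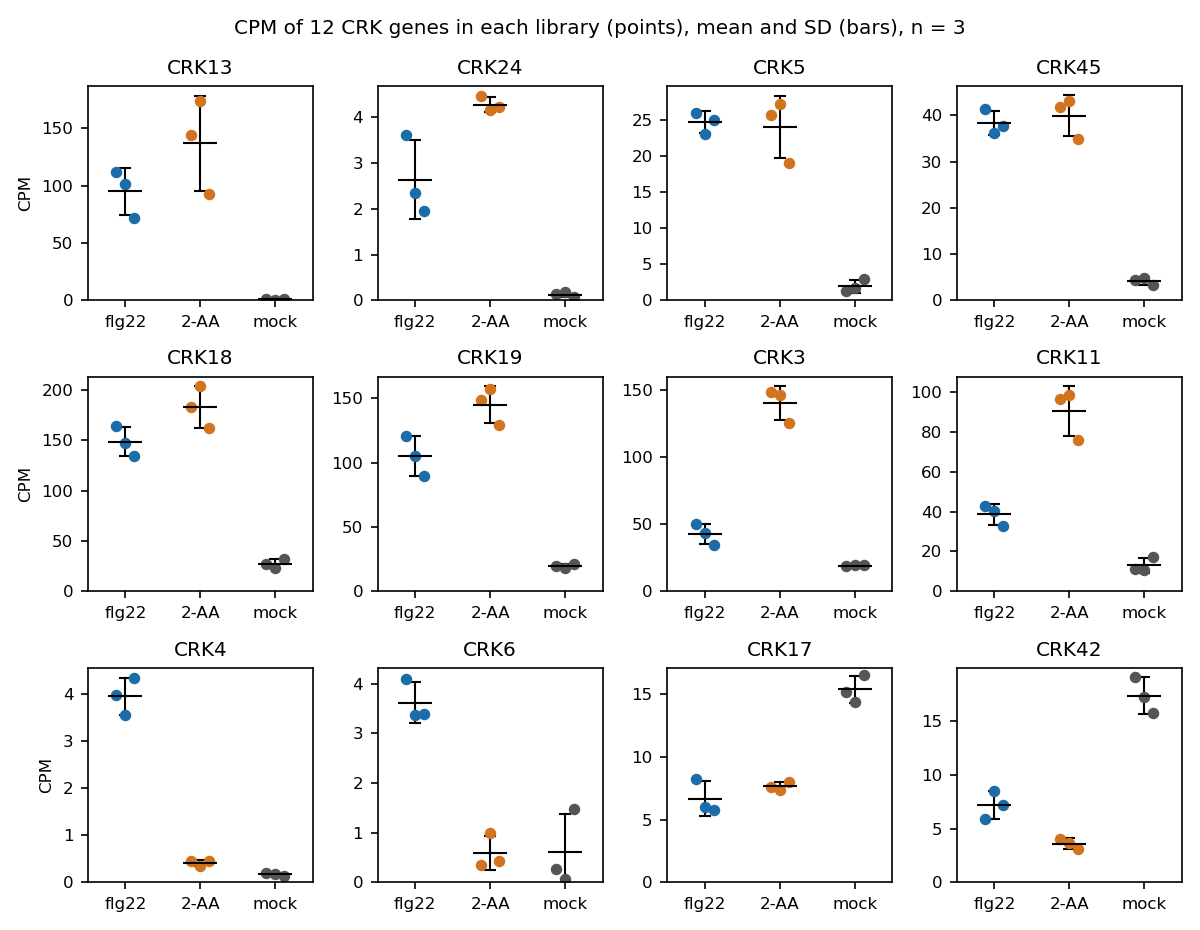
CPM per library (y axis of each panel) of 12 CRK genes in flg22, 2-AA and mock seedlings; points are libraries, and lines with bars give the mean and SD of 3. CRK13 runs from 71.5 to 174 CPM in the 6 treated libraries and stays below 2 CPM in mock, while CRK17 and CRK42 are lower in the treated libraries.

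Along the rest of the cluster the rises were of different sizes, and CRK17 went against its neighbours. CRK18 (AT4G23260) and CRK19 had the most counts of the family in the treated groups, though not in mock, CRK18 with a mean of 149 ± 14.7 CPM with flg22, 183 ± 20.8 CPM with 2-AA and 27.7 ± 4.15 CPM in mock (SD, n = 3 each). It rose by 2.43 with flg22 (SE 0.12) and 2.73 with 2-AA (SE 0.12). CRK9 (AT4G23170) rose by 3.07 with flg22 and 2.94 with 2-AA, and CRK12 by 1.42 with flg22 and 1.88 with 2-AA. CRK21 rose by 0.92 with flg22 and 1.18 with 2-AA, and CRK10, known for a dwarfing gain-of-function allele, by 0.59 with flg22 and 0.61 with 2-AA. CRK7 (AT4G23150), known from work on responses to extracellular reactive oxygen, rose by 3.46 with flg22 (SE 0.83) and 2.89 with 2-AA (SE 0.85), and had 0, 4 and 3 counts in mock. Of its flg22 libraries, replicate 3 was far below the others (0.203 CPM, against 1.38 and 1.01).

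CRK6, CRK8, CRK20 and CRK23 were called higher with flg22 but not with 2-AA, all of them with few counts in mock. All passed the filter only through treated libraries, CRK8 and CRK23 only through their flg22 libraries. Their flg22 rises, and for CRK8 and CRK23 the contrast with 2-AA, were thus partly selected for. In 2-AA against flg22, CRK6 and CRK23 were called, as given below. CRK8 (log2 fold change -1.31, edgeR adjusted p = 0.116) and CRK20 (-1.09, adjusted p = 0.172) were not called there. Against mock, the 2-AA rise of CRK20 was called by DESeq2 (adjusted p = 0.0337) and limma-voom (0.0369). CRK6 (AT4G23140), whose overexpression is known to raise responses to flagellin, had 125, 93 and 100 counts with flg22, 11, 26 and 14 counts with 2-AA, and 8, 2 and 45 counts in mock. The flg22 libraries stood above all others, and 2-AA overlapped with mock, in which replicate 3 held most of the counts. The log2 fold change of CRK6 was 2.59 with flg22 (SE 0.66, edgeR adjusted p = 0.00441) and -0.04 with 2-AA (SE 0.73, adjusted p = 0.963). Without mock replicate 3 it was 4.47 with flg22 and 1.84 with 2-AA (adjusted p = 0.026). The 2-AA value was also above 0 without 2-AA replicate 1 (0.22) and without 2-AA replicate 3 (0.14), where it was not called. CRK23 had 18, 20 and 31 counts with flg22, 8, 4 and 4 counts with 2-AA, and 2, 2 and 0 counts in mock, and CRK20 had 95, 48 and 59 counts with flg22, 40, 32 and 24 counts with 2-AA, and 16, 2 and 22 counts in mock. The groups of both genes did not overlap, and with 2-AA the log2 fold change of CRK23 was 1.95 (SE 0.84, adjusted p = 0.0592), while CRK20 was 2.46-fold higher than mock (SE 0.56 on the log2 scale, adjusted p = 0.0598; 0.0235 without mock replicate 3 and 0.0482 without 2-AA replicate 3). CRK8 (AT4G23160) had 34, 10 and 25 counts with flg22, 8, 8 and 12 counts with 2-AA, and 8, 4 and 8 counts in mock. Its call with flg22 (1.83, SE 0.55, adjusted p = 0.0111) was lost without flg22 replicate 1 (adjusted p = 0.0653) and without mock replicate 2 (adjusted p = 0.0514).

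CRK17 (AT4G23250), which RefSeq names EMB1290 for its embryo-defective mutant, was the 1 cluster member that fell. It stood at 8.26, 5.97 and 5.75 CPM with flg22, at 7.56, 7.35 and 8.02 CPM with 2-AA, and at 15.2, 14.4 and 16.5 CPM in mock. Every treated library was below every mock library, and the treatments overlapped. CRK17 had a log2 fold change of -1.20 with flg22 (SE 0.14, edgeR adjusted p = 7.26e-06) and -1.01 with 2-AA (SE 0.14, adjusted p = 2.98e-05). CRK16 (AT4G23240), which overlaps CRK17 on the same strand, moved the other way, by 1.64 with flg22 (SE 0.37, adjusted p = 0.00184) and 0.98 with 2-AA (SE 0.38, adjusted p = 0.0372). The 2-AA call of CRK16 was lost without 2-AA replicate 1 (adjusted p = 0.149), 2-AA replicate 2 (0.102), mock replicate 1 (0.113) or mock replicate 3 (0.0633), and with limma-voom (0.102).

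**Figure D3:**
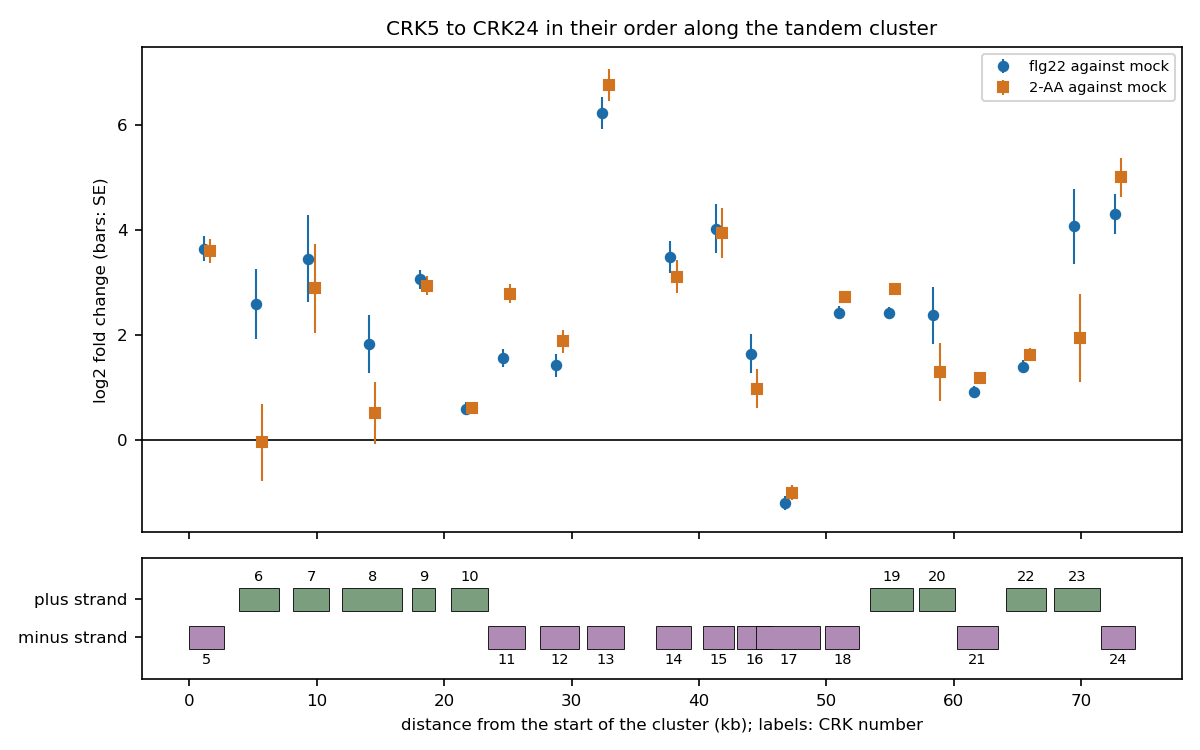
Log2 fold change of the 20 cluster members (y axis, edgeR estimate) with flg22 and with 2-AA against mock, placed by distance in kb from the cluster's start (x axis), with the genes drawn below by strand. Across 74.2 kb the values go from -1.20 for CRK17 to 6.77 for CRK13. With flg22, CRK12 at 1.42 lies beside CRK13 at 6.25, and CRK23 at 4.07 beside CRK24 at 4.32. With 2-AA, CRK23 is at 1.95 and CRK24 at 5.01.

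The cluster spanned 74.2 kb (chr4:12117491-12191704), with 11 members on the minus and 9 on the plus strand and 3 annotated genes between them that are not members. With flg22, CRK13 (log2 fold change 6.25) lies beside CRK12 (1.42), and CRK17 (-1.20) beside CRK18 (2.43). CRK14 (3.49) lies beside CRK15 (4.03) and CRK23 (4.07) beside CRK24 (4.32), also with flg22. With 2-AA the last pair was apart, CRK23 at 1.95 (not called) and CRK24 at 5.01, both with few counts in mock.

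Outside the cluster, CRK45 had the largest rise with 2-AA, and with flg22 it came second to CRK4, which is described below with the direct comparison, among members averaging at least 1 CPM. CRK45 (AT4G11890), a cytosolic kinase known to be induced by abscisic acid and to interact with CRK36, stood at 41.3, 36.2 and 37.7 CPM with flg22, at 41.7, 43 and 34.8 CPM with 2-AA, and at 4.35, 4.84 and 3.22 CPM in mock. The treatments overlapped and both lay above mock. Its log2 fold change was 3.21 with flg22 (SE 0.14, edgeR adjusted p = 1.09e-09) and 3.26 with 2-AA (SE 0.14, adjusted p = 6.35e-10). Its partner CRK36 (AT4G04490), which is also known to promote responses to flagellin, averaged 6.41 ± 2.53 CPM with flg22, 6.35 ± 1.82 CPM with 2-AA and 1.06 ± 0.455 CPM in mock (SD, n = 3 each), and rose by 2.60 with flg22 and 2.58 with 2-AA. CRK28 and CRK29, of which CRK28 is known to associate with the flagellin receptor and its co-receptor, overlap on the genome. CRK28 (AT4G21400) rose by 1.55 with flg22 and 1.73 with 2-AA, and CRK29 by 1.15 with flg22 and 1.18 with 2-AA. CRK41 (AT4G00970) rose by 1.32 with flg22 and 0.74 with 2-AA.

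The other members outside the cluster gave smaller or less stable values. CRK34 (AT4G11530) rose by 0.89 with flg22 and by 0.50 with 2-AA (adjusted p = 0.0162), a 2-AA call that was lost without 2-AA replicate 1 (adjusted p = 0.0537), 2-AA replicate 2 (0.0749) or mock replicate 2 (0.0681). CRK26 (AT4G38830) rose by 1.07 with flg22 (adjusted p = 0.013; 0.0641 without flg22 replicate 2) and was at 0.39 with 2-AA (SE 0.33, adjusted p = 0.329). CRK25 (AT4G05200) was at -0.36 with flg22 (SE 0.17, adjusted p = 0.0844) and 0.06 with 2-AA (SE 0.17, adjusted p = 0.771). CRK38 (AT4G04510) had 40, 26 and 18 counts with flg22, 16, 30 and 18 counts with 2-AA, and 0, 0 and 8 counts in mock, and was called higher in both, 10.6-fold with flg22 (adjusted p = 0.00383) and 8.09-fold with 2-AA (adjusted p = 0.00852). Without mock replicate 3, and with the floor used for CRK37, CRK38 was at least 20.7-fold higher with flg22 and at least 15.2-fold higher with 2-AA. CRK39 (AT4G04540) had 20, 20 and 10 counts with flg22, 6, 2 and 16 counts with 2-AA, and 0, 0 and 10 counts in mock. It was 5.13-fold higher with flg22 (edgeR adjusted p = 0.0528) and 2.36-fold higher with 2-AA (adjusted p = 0.328), and called in neither. Without mock replicate 3 it was at least 12.3-fold higher with flg22 and at least 5.71-fold higher with 2-AA, with calls in both (adjusted p = 0.00247 with flg22 and 0.0114 with 2-AA).

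Falls outside the cluster were seen for CRK42, CRK30 and CRK40. CRK42 (AT5G40380) stood at 5.9, 8.46 and 7.21 CPM with flg22, at 4.05, 3.7 and 3.08 CPM with 2-AA, and at 19.1, 17.2 and 15.8 CPM in mock. None of the 3 groups overlapped, 2-AA being lowest and mock highest. CRK42 had a log2 fold change of -1.27 with flg22 (SE 0.15, edgeR adjusted p = 7.47e-06) and -2.27 with 2-AA (SE 0.16, adjusted p = 4.57e-08). CRK30 (AT4G11460) stood at 16.7, 18.7 and 19.1 CPM with flg22, at 11.1, 13.1 and 11.2 CPM with 2-AA, and at 29.3, 26.1 and 24.8 CPM in mock. It had the same order with no overlap. Its log2 fold change was -0.56 with flg22 (SE 0.10, adjusted p = 0.000428) and -1.18 with 2-AA (SE 0.11, adjusted p = 5.09e-07). CRK40 (AT4G04570) stood at 45.7, 47.4 and 42.8 CPM with flg22, at 29.3, 35.3 and 28.9 CPM with 2-AA, and at 54.4, 46.5 and 55.8 CPM in mock, so that flg22 overlapped with mock and 2-AA did not. It fell by 0.75 with 2-AA (SE 0.09, adjusted p = 1.03e-05) and was at -0.21 with flg22 (SE 0.09, adjusted p = 0.0661; called without mock replicate 2, adjusted p = 0.0247, and without 2-AA replicate 2, adjusted p = 0.0432).

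Comparing the molecules directly, edgeR called 4 of the 37 members higher and 7 lower in 2-AA than in flg22 seedlings, beside 7.86% of all genes higher and 7.89% lower. The members' shares were 10.8% higher and 18.9% lower, and 26 were not called. The median log2 fold change was -0.08 over the members and -0.01 over all genes. In the cluster 2 were higher and 2 lower, and elsewhere 2 were higher and 5 lower. At least 2-fold differences were called for 2 higher members (1.68% of all genes) and 4 lower ones (1.48%). Members at least 4-fold higher numbered 0 (0.394%). CRK23 and CRK31, in both counts of lower members, passed the filter only through their flg22 libraries. They were thus selected for high flg22 counts, and the lower members were not recounted without them. The doses differed in kind and amount, and the treatment times are not known, so these values compare these treatments and not the molecules at matched strength. Against a 1.5-fold change, 2 members were higher and 1 was lower, beside 1.36% of all genes higher and 0.883% lower. Without 2-AA replicate 3 the counts were 7 higher and 4 lower, beside 7.28% and 7.05% of all genes, and without flg22 replicate 1 they were 7 higher and 6 lower, beside 6.50% and 6.21%.

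CRK3, CRK11, CRK2 and CRK19 were higher with 2-AA than with flg22. CRK3 (AT1G70530) stood at 149, 146 and 126 CPM with 2-AA, against 50.1, 43.3 and 34.8 CPM with flg22 and 18.6, 19.6 and 19.6 CPM in mock. The 3 groups did not overlap. The log2 fold change of CRK3 was 1.71 in 2-AA against flg22 (SE 0.11, edgeR adjusted p = 7.19e-07), and against mock it was 2.86 with 2-AA (SE 0.12, adjusted p = 5.06e-10) and 1.15 with flg22 (SE 0.11, adjusted p = 1.7e-06). CRK11 (AT4G23190) stood at 96.4, 98.4 and 76 CPM with 2-AA, against 42.7, 40.1 and 32.8 CPM with flg22 and 11.1, 10.6 and 17.4 CPM in mock. The order was the same, again without overlap. CRK11, the member with 6 TTGAC copies, differed by 1.23 in 2-AA against flg22 (SE 0.16, adjusted p = 0.000188), with 2.79 for 2-AA (SE 0.17) and 1.57 for flg22 (SE 0.17) against mock.

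CRK2 (AT1G70520), known to phosphorylate the NADPH oxidase RBOHD and to act with the callose synthase CALS1 in salt responses, is the neighbour of CRK3 on chromosome 1. It stood at 84.6, 86.9 and 64.5 CPM with 2-AA, against 52.9, 41.1 and 39.9 CPM with flg22 and 24.1, 20.4 and 24.8 CPM in mock. All 3 groups were apart. The log2 fold change was 0.82 in 2-AA against flg22 (SE 0.13, edgeR adjusted p = 0.000741), with 1.77 for 2-AA and 0.95 for flg22 against mock. CRK19 (AT4G23270), whose induced expression is known to trigger cell death, stood at 149, 157 and 129 CPM with 2-AA, against 120, 106 and 89.9 CPM with flg22 and 19.4, 18.2 and 21.5 CPM in mock. Its treated groups lay apart by a small gap. It differed by 0.46 between the treatments (SE 0.11, adjusted p = 0.00906), a call lost without mock 3, flg22 2 and 2-AA 2 (adjusted p = 0.0677). CRK13, at 0.53 in 2-AA against flg22, did not pass (SE 0.21, adjusted p = 0.109), and it passed when 2-AA replicate 3 was left out (0.74, adjusted p = 0.0105).

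CRK4 had the largest difference in the other direction. Like CRK19 it is known to trigger cell death when induced, and its overexpression is known to raise responses to flagellin. CRK4 (AT3G45860) stood at 0.447, 0.343 and 0.463 CPM with 2-AA (14, 9 and 15 counts), against 3.97, 3.54 and 4.33 CPM with flg22 (121, 98 and 128 counts) and 0.201, 0.182 and 0.132 CPM in mock (6, 6 and 4 counts). The flg22 libraries stood far above the rest, and 2-AA lay just above mock without overlap. Its log2 fold change was -3.22 in 2-AA against flg22 (SE 0.29, edgeR adjusted p = 1.1e-05), and against mock it was 1.27 with 2-AA (SE 0.38, adjusted p = 0.0107) and 4.49 with flg22 (SE 0.33, adjusted p = 9.63e-08). The 2-AA rise of CRK4 was not called with limma-voom (adjusted p = 0.0574), nor with edgeR without mock 3, flg22 2 and 2-AA 2 (adjusted p = 0.0506).

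CRK6, with the counts given above, was lower with 2-AA than with flg22 by a log2 value of -2.63 (SE 0.67, edgeR adjusted p = 0.0171). The call was lost without 2-AA replicate 1 (adjusted p = 0.0747) and without 2-AA replicate 3 (adjusted p = 0.0558), and the value was -3.19 without 2-AA replicate 2. CRK31 (AT4G11470) had 6, 12 and 10 counts with 2-AA, against 28, 26 and 35 counts with flg22 and 2, 8 and 6 counts in mock. Here flg22 alone stood apart, and 2-AA overlapped with mock. CRK31 was at -1.67 in 2-AA against flg22 (SE 0.49, adjusted p = 0.0337) and CRK23 at -2.12 (SE 0.57, adjusted p = 0.0239). The call of CRK31 was lost without any 1 of 5 libraries (flg22 replicates 1, 2 and 3 and 2-AA replicates 1 and 3; adjusted p = 0.0691 to 0.13), and that of CRK23 without any 1 of 4 (flg22 replicates 2 and 3 and 2-AA replicates 2 and 3; adjusted p = 0.0529 to 0.102). CRK42 differed by -0.99 in 2-AA against flg22 (SE 0.16, adjusted p = 0.000987), CRK30 by -0.63 (SE 0.11, adjusted p = 0.00143) and CRK40 by -0.54 (SE 0.09, adjusted p = 0.00143). These 3 were lower with 2-AA than in mock too, whereas CRK4, with few counts, was higher.

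**Figure D4:**
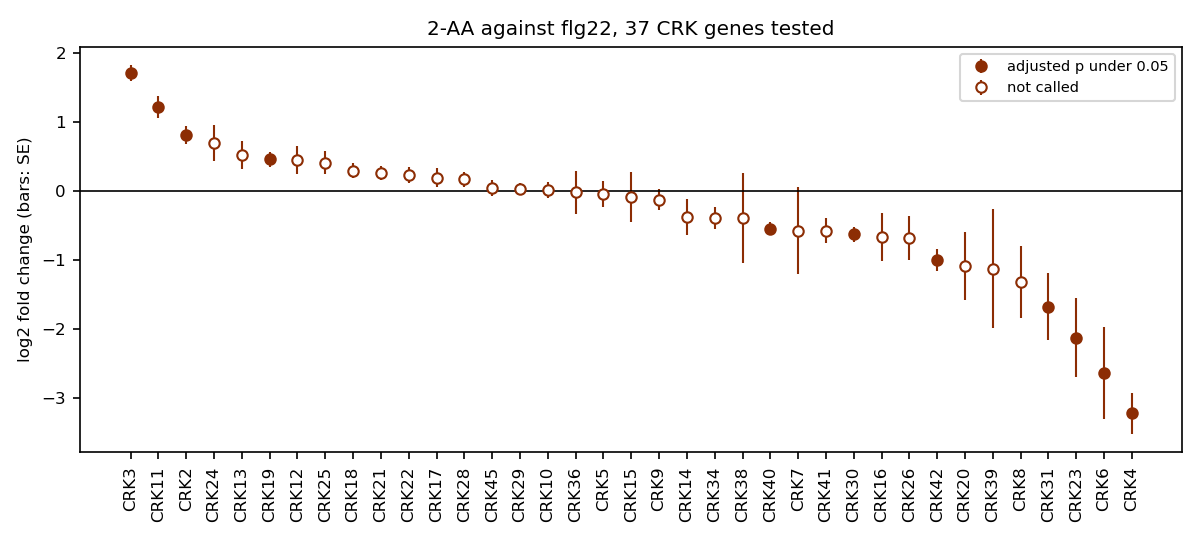
Log2 fold change of 2-AA against flg22 (y axis) for the 37 members tested, ordered from highest to lowest along the x axis, with bars of 1 SE. Filled points passed an edgeR adjusted p under 0.05. CRK3 lies highest, at the left end, at 1.71 and CRK4 lowest, at the right end, at -3.22. The 26 members not called are drawn open.

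Levels were compared between genes per kb of exon sequence. In mock the highest mean level was that of CRK21 (20.5 ± 0.922 CPM per kb, SD, n = 3), followed by CRK40 (16.9), CRK22 (15.2), CRK29 (14.0) and CRK18 (12.5). The mock libraries of CRK21 lay above those of CRK40, while those of CRK40 and CRK22, and of CRK29 and CRK18, overlapped. With flg22 the order began with CRK18 (67.3 ± 6.63 CPM per kb), CRK19 (40.2), CRK22 (40.0), CRK21 (38.7) and CRK13 (36.2), of which only CRK18 stood apart from the next beyond its spread. With 2-AA it began with CRK18 (82.9 ± 9.39), CRK19 (55.4), CRK13 (52.2), CRK3 (48.9) and CRK22 (47.1), again with CRK18 alone clear of the next. CRK13 thus held rank 5 with flg22, rank 3 with 2-AA and rank 23 in mock, and CRK40 held rank 12 with flg22, rank 14 with 2-AA and rank 2 in mock. A mean of at least 1 CPM per kb was reached by 31 members with flg22, 26 with 2-AA and 20 in mock. The 5 members with the most counts made up 50.9% of the family's CPM with flg22, 52.6% with 2-AA and 51.1% in mock.

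**Figure D5:**
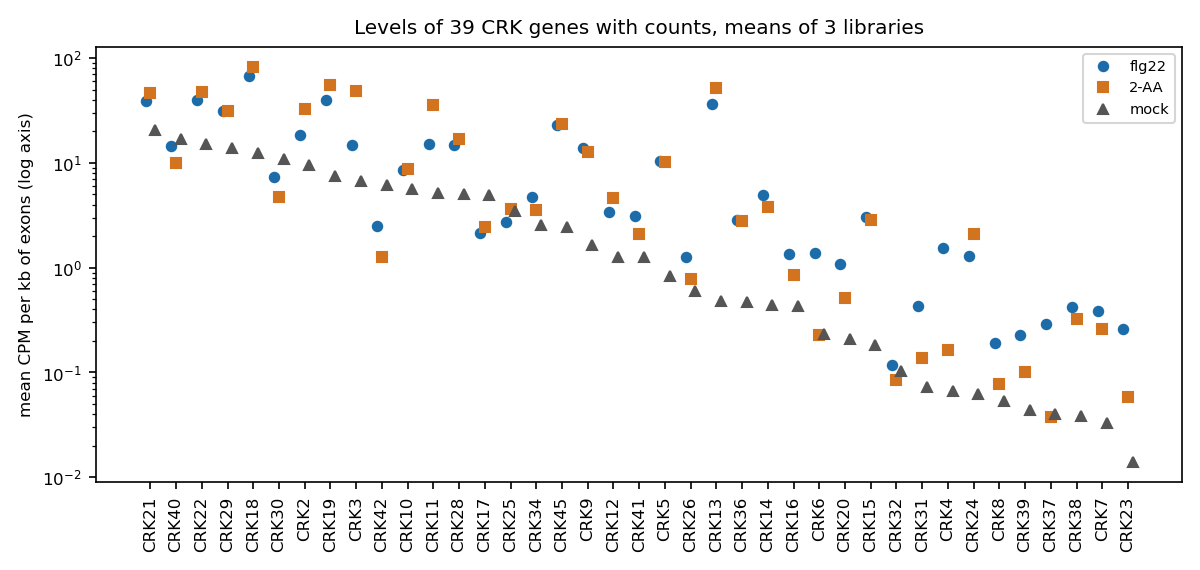
Mean level in CPM per kb of exons (log axis) of the 39 members with any count, in flg22, 2-AA and mock seedlings, ordered by the level in mock. CRK21 leads in mock at 20.5, CRK18 leads with flg22 at 67.3 and with 2-AA at 82.9, and the low members of mock include CRK4, CRK15 and CRK24.

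Related genes were read from lists of DUF26 proteins and of CRK partners. Of 5 further CRK-type loci in the table, 4 were tested, and AT4G28670 had 4 counts in all. AT4G11521 rose by 1.62 with flg22 and 1.44 with 2-AA, AT4G00960 rose by 1.35 with flg22 (adjusted p = 0.0431) and 1.43 with 2-AA (adjusted p = 0.0308), and CRK27 and AT1G70740 were not called. The libraries of AT4G00960 overlapped with mock in both treatments, and its calls were lost without any 1 of 6 libraries with flg22 (all but flg22 replicate 3, 2-AA replicate 2 and mock replicate 2; adjusted p = 0.0527 to 0.172) and without any 1 of 4 with 2-AA (2-AA replicates 1 and 3 and mock replicates 1 and 3; adjusted p = 0.0738 to 0.1). Of 10 proteins with DUF26 domains but no kinase, 2 rose, 3 fell and 5 were not called with flg22, and 3 rose, 5 fell and 2 were not called with 2-AA. These are 20% higher and 30% lower with flg22, beside 29.8% and 29.4% of all genes. With 2-AA they are 30% higher and 50% lower, beside 31.2% and 31.1% of all genes. Leaving out 1 library could undo the 2-AA falls of PDLP5 (edgeR adjusted p up to 0.177) and PDLP7 (up to 0.123). The same held for the 2-AA rise of PDLP1 (up to 0.0508) and the flg22 fall of PDLP4 (up to 0.0653). AT3G22060 stood at 841, 827 and 642 CPM with 2-AA, against 162, 157 and 114 CPM with flg22 and 27.7, 19.2 and 31.2 CPM in mock, with no overlap (2-AA against flg22 2.42, SE 0.17, edgeR adjusted p = 1.63e-06). AT5G48540 stood at 171, 176 and 144 CPM with 2-AA, against 30.6, 23.9 and 20.4 CPM with flg22 and 17.2, 14.99 and 18.9 CPM in mock, also with no overlap (2-AA against flg22 2.71, SE 0.13, adjusted p = 1.12e-07). Among the PDLPs, DUF26 proteins of plasmodesmata, PDLP2 fell by 1.48 with flg22 and 1.98 with 2-AA, and PDLP3 by 0.54 with flg22 and 1.35 with 2-AA.

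Of 8 genes whose proteins are known to act with CRKs, 5 rose and 2 fell with flg22, and 7 rose and 0 fell with 2-AA, or 62.5% higher and 25% lower with flg22 and 87.5% higher with 2-AA, beside the shares of all genes given above. PLDALPHA1, a phospholipase gene, rose by 0.15 with flg22 (adjusted p = 0.0361; 0.0679 to 0.09 without flg22 replicate 1 or 3 or mock replicate 1 or 2) and 0.30 with 2-AA. BIK1, the cytoplasmic kinase of the flagellin pathway, rose by 1.18 with flg22 and 1.48 with 2-AA, and CALS1 by 1.01 with flg22 and 0.71 with 2-AA. The NADPH oxidase gene RBOHD fell by 0.52 with flg22 (SE 0.11, edgeR adjusted p = 0.000983) and was at -0.13 with 2-AA (adjusted p = 0.307; 0.0297 without mock replicate 2). RBOHF, another NADPH oxidase gene, was at 0.00 with flg22 (adjusted p = 0.979) and rose by 0.61 with 2-AA (SE 0.07, adjusted p = 3.5e-06). The root hair oxidase gene RBOHC fell by 0.40 with flg22 (adjusted p = 0.0484) and rose by 0.50 with 2-AA (adjusted p = 0.0145), and the difference itself passed the test (2-AA against flg22 0.90, SE 0.16, adjusted p = 0.00204). The RBOHC call with flg22 was lost without any 1 of 6 libraries (each flg22 library, 2-AA replicate 2, mock replicate 2 or mock replicate 3; adjusted p = 0.0508 to 0.242). With 2-AA, whose libraries overlapped with mock, it was lost without 2-AA replicate 1 (adjusted p = 0.0749) or mock replicate 1 (0.0635). EXPA7, a root hair marker, was at -0.99 with flg22 against mock and 1.06 in 2-AA against flg22. With 2-AA against mock, 0 of the 6 root markers rose and 2 fell, COBL9 among them, and the largest value was 0.11. The part of root hairs in the RBOHC values was not tested.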

How the data were processed

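RNA was measured in 9 libraries of whole seedlings, 3 per group. The authors deposited 1 table of whole-number read counts per gene for 32833 loci, per the file headers 1 column per library; 0 entries named no gene. Per the submitters' processing notes, Trimmomatic 0.36, HISAT2, edgeR and the TAIR10 build were used. Their settings, the counting program and strandedness are not given in these sources. The table holds no coordinates: those in the text, counted from 1, are from the RefSeq TAIR10.1 annotation, as are promoters and coding DNA. How counting treated both reads of a pair is likewise not stated.

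Counts were tested with edgeR 4.0.16 (R 4.3.3): filterByExpr (minimum count 10, minimum total 15) left 21059 genes, and TMM scaling and 1 quasi-likelihood fit of the group means over all 9 libraries gave 3 comparisons. Residual degrees of freedom numbered 6, and the common biological coefficient of variation 0.119. Two-sided p-values were Benjamini-Hochberg adjusted over every gene tested, with calls at an adjusted p under 0.05; the same test gave all adjusted p-values of the text unless another tool is named. The SE is the size of the log2 fold change divided by the square root of F. Within groups, libraries differed by more than sampling noise (chi-square per degree of freedom 5.62 to 31.8), so all were counted as separate. The scripts were tested on simulated data.

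Members, lists and tests were chosen with earlier results of these data known. Per-library values and full statistics are given for the 6 largest rises and 4 largest falls against mock, and the 6 largest each way in 2-AA against flg22, among called members whose higher group averaged 1 CPM or more; the other members are summarised, with counts for members near the detection limit, whose choice was made after their values were seen. Similarity between members was computed on coding DNA, since no protein table was used here. A promoter match is a description of letters, not of a binding site. Alternatives were RLE size factors, DESeq2 1.42.0, limma-voom (limma 3.58.1), 2 other filters, a 1.5-fold null, a replicate block and libraries left out.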

Additional observations from a re-analysis of the deposited data

How the results depend on the processing

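RLE size factors changed no call of any member. Across the other settings the members called higher with flg22 numbered 26 to 32 and those called higher with 2-AA 20 to 26, with 2 to 4 and 3 to 4 lower, and leaving out 1 library gave 30 to 33 higher and 3 to 4 lower with flg22, and 23 to 27 higher and 4 lower with 2-AA. In 2-AA against flg22, the test against a 1.5-fold change left 2 higher and 1 lower, and leaving out 1 library gave 4 to 7 higher and 4 to 8 lower. Without mock 3, flg22 2 and 2-AA 2 the counts were 31 higher and 4 lower with flg22, 24 and 4 with 2-AA, and 3 and 6 in 2-AA against flg22. The value of CRK6 in 2-AA against mock changed sign to 0.78 with limma-voom, 0.15 with the replicate block, and 1.28 without those 3 libraries, and it ran between -0.60 and 1.84 with 1 library left out (0.22 without 2-AA replicate 1, 0.14 without 2-AA replicate 3, 1.84 without mock replicate 3, -0.60 without 2-AA replicate 2). That of CRK25 changed sign to -0.18 without the 3 libraries, -0.094 without 2-AA replicate 2 and -0.02 without mock replicate 3. The cause was not tested. Values of members under about 1 CPM are limited by depth.

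With the replicate block, 32 members were higher and 4 lower with flg22, 24 and 4 with 2-AA, and 5 and 7 in 2-AA against flg22. The block added calls of CRK13 in 2-AA against flg22 (adjusted p = 0.0321) and of CRK39 (0.0399) and CRK25 (0.045) with flg22, and CRK16 with 2-AA was no longer called (0.0635). The numbers did not pair the libraries: deviations from the group means correlated between -0.134 and 0.188 over same-numbered pairs.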
